A study of Zea mays with 9 samples.

Results

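Maize genes of low-oxygen metabolism, namely the hemoglobin gene GLB1 (GRMZM2G067402), the alcohol dehydrogenase genes adh1 (GRMZM2G442658) and adh2 (GRMZM2G098346) and the pyruvate decarboxylase gene pdc3 (GRMZM2G087186), were followed in every library of a tassel RNA sequencing study. They are 4 of the 39305 gene identifiers in the deposited tables, and were picked by name with earlier results of these libraries known, among them a large difference of GLB1 in the ndl1 mutant. Their values are therefore given as a description, with fold changes and standard errors but no test. GLB1 is the name in the RefSeq gene table, which lists Hb and Hbm as older names. The maize seed storage globulin gene that also goes by glb1 has another identifier and is not meant here.

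Plant hemoglobins, or phytoglobins, bind oxygen very tightly and convert nitric oxide to nitrate, and their genes are known to respond to low oxygen, nitrate and nitric oxide. In ethanolic fermentation, pyruvate decarboxylase converts the pyruvate made by glycolysis to acetaldehyde, and alcohol dehydrogenase reduces the acetaldehyde to ethanol. The last step regenerates the oxidised cofactor that glycolysis needs, so that ATP can still be made when mitochondrial respiration is short of oxygen. The maize adh1 and adh2 genes are classic examples of genes induced by flooding in roots, and adh1 is also active in pollen. Low oxygen inside young maize anthers has been linked to the specification of the cells that later enter meiosis.

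The libraries came from 2 to 4 mm tassels, the male inflorescences, of field-grown plants in the B73 inbred background. There were 4 libraries of ndl1 (needle1) mutants, labelled as mutant in zmftsh10, a gene of the FtsH family of membrane-bound proteases whose product the series title places in mitochondria. Another 2 were of Bif1;Bif4 mutants, double heterozygotes that carry mutations in genes for Aux/IAA repressors of auxin signalling, and 3 of wildtype plants. The ndl1 material included severely affected tassels on which a few axillary meristems had still formed. The labels name no allele, and do not say how many plants went into a library or whether libraries came from separate plants, so p-values given for other genes reflect the spread among these libraries alone, and that spread may be technical.

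Recovered totals were 16863087 to 22533736 reads per library. The mutated genes themselves gave no check of the labels, since none differed past the threshold in its own mutant: the log2 fold change was -0.05 ± 0.08 (SE) for NDL1 in ndl1, and -0.51 ± 0.50 for BIF1 and -0.52 ± 0.34 for BIF4 in Bif1;Bif4. Across all genes, limma with Benjamini-Hochberg adjustment at 0.05 called 1.94% of the 22416 genes tested higher and 1.22% lower in ndl1, and 2.23% of 22381 higher and 2.05% lower in Bif1;Bif4. Every ndl1 library lay above every wildtype library for 9.51% of the genes, and every Bif1;Bif4 library for 20.9%. Both mutants were compared with the same 3 wildtype libraries, so the comparisons are not independent.

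The 9 values of GLB1 lay in the order ndl1, Bif1;Bif4, wildtype without overlap. Its normalized counts, which are reads divided by the size factor of the library, were 618.6, 446.4, 262.8 and 814.02 in ndl1 replicates 1 to 4, against 36.7, 10.6 and 27.8 in wildtype replicates 1 to 3. The lowest ndl1 library was 7.16 times the highest wildtype library. The group means were 535 ± 236 (SD, n = 4) in ndl1 and 25.1 ± 13.3 (n = 3) in wildtype, a log2 fold change of 4.41 ± 0.47 (SE) on the log2(normalized count + 1) scale. This difference stood at place 37 from the top among the 22416 genes tested.

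In the double heterozygotes the hemoglobin gene had 105.4 and 226.8 normalized counts, against 36.6, 10.5 and 27.5 in wildtype as scaled in the Bif1;Bif4 table. Both mutant libraries lay above all wildtype libraries, the lower of them by 2.88 times. The log2 fold change was 2.75 ± 0.56 (means 166 ± 85.8 in the double heterozygotes, n = 2, and 24.9 ± 13.2 in wildtype, n = 3), place 75 among 22381 genes. In a bulk tissue, more RNA per cell and more cells that make the RNA cannot be told apart.

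GLB1 had fewer reads in wildtype than the other 3 genes, and counting error is widest in its wildtype libraries. It had 298 to 824 reads in ndl1 and 118 and 217 reads in the double heterozygotes, against 38, 11 and 24 reads in wildtype. The exact 95% Poisson interval of the 11 reads of wildtype replicate 2 was 5.49 to 19.7 reads. That of the 298 reads of ndl1 replicate 3 was 265 to 334 reads, and that of the 217 reads of Bif1;Bif4 replicate 2 was 189 to 248 reads. Divided by the size factors, the intervals of these ndl1 and Bif1;Bif4 libraries overlapped, so the order of these libraries is within counting error. These intervals cover counting error only. Within groups the gene also varied most, by 3.10 times between the lowest and the highest ndl1 library and by 3.46 times between those of wildtype.

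The alcohol dehydrogenase gene adh1 was higher in both mutants by less than the hemoglobin gene. Its normalized counts were 13212, 8854, 12113 and 13227 in ndl1 replicates 1 to 4, against 6570.4, 5323 and 7421 in wildtype replicates 1 to 3. All ndl1 libraries were above all wildtype libraries, and replicate 2 was the lowest of them at 1.19 times the highest wildtype value. The means of 11852 ± 2065 in ndl1 and 6438 ± 1055 in wildtype gave a log2 fold change of 0.88 ± 0.17.

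In the double heterozygotes, adh1 had 9786 and 10635 normalized counts, against 6544, 5285 and 7322 in wildtype. The Bif1;Bif4 libraries were close to each other and both were above wildtype. The log2 fold change was 0.69 ± 0.14, from means of 10210.2 ± 600.1 in Bif1;Bif4 and 6384 ± 1028 in wildtype.

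The second alcohol dehydrogenase gene, adh2, had a different pattern, with its highest values in the double heterozygotes. In ndl1 its normalized counts were 300.03, 311, 636 and 624, against 289.9, 381 and 433 in wildtype. The ndl1 libraries split into a pair within the wildtype range, replicates 1 and 2, and a pair above it, replicates 3 and 4. The log2 fold change of 0.27 ± 0.30 in ndl1 was smaller than its standard error (means 468 ± 187 in ndl1 and 368 ± 72.3 in wildtype).

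Bif1;Bif4 tassels gave adh2 values of 998 and 721 normalized counts, against 288.7, 378 and 427 in wildtype. Both lay above every wildtype library, the lower of them by 1.69 times. The log2 fold change was 1.24 ± 0.20, with means of 859.6 ± 196 in the double heterozygotes and 364.5 ± 70.1 in wildtype, and it stood at place 561 of 22381. On that scale adh2 had the larger of the alcohol dehydrogenase differences in the double heterozygotes and the smaller in ndl1.

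Pyruvate decarboxylase, which makes the acetaldehyde that alcohol dehydrogenase uses, followed adh1 more than adh2. The pdc3 gene had 8259.5, 4724, 8223 and 10575 normalized counts in ndl1 replicates 1 to 4, against 2885, 3388 and 4749 in wildtype replicates 1 to 3. The ndl1 replicates 1, 3 and 4 were well above wildtype, and replicate 2 lay just below wildtype replicate 3, so that the groups overlapped by that library alone. The log2 fold change was 1.09 ± 0.27, from means of 7945 ± 2413 in ndl1 and 3674 ± 964 in wildtype.

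In the double heterozygotes, pdc3 had 5613.5 and 7372 normalized counts, against 2874, 3364 and 4686 in wildtype. The groups did not overlap. The log2 fold change was 0.85 ± 0.21, from means of 6493 ± 1244 in Bif1;Bif4 and 3641 ± 937 in wildtype. In all, 2 of the 4 genes in ndl1 and 4 of the 4 in the double heterozygotes lay wholly above wildtype. Against the 9.51% and 20.9% of all genes given above, nothing can be read from these counts, because the genes were chosen with the values known.

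**Figure D1:**
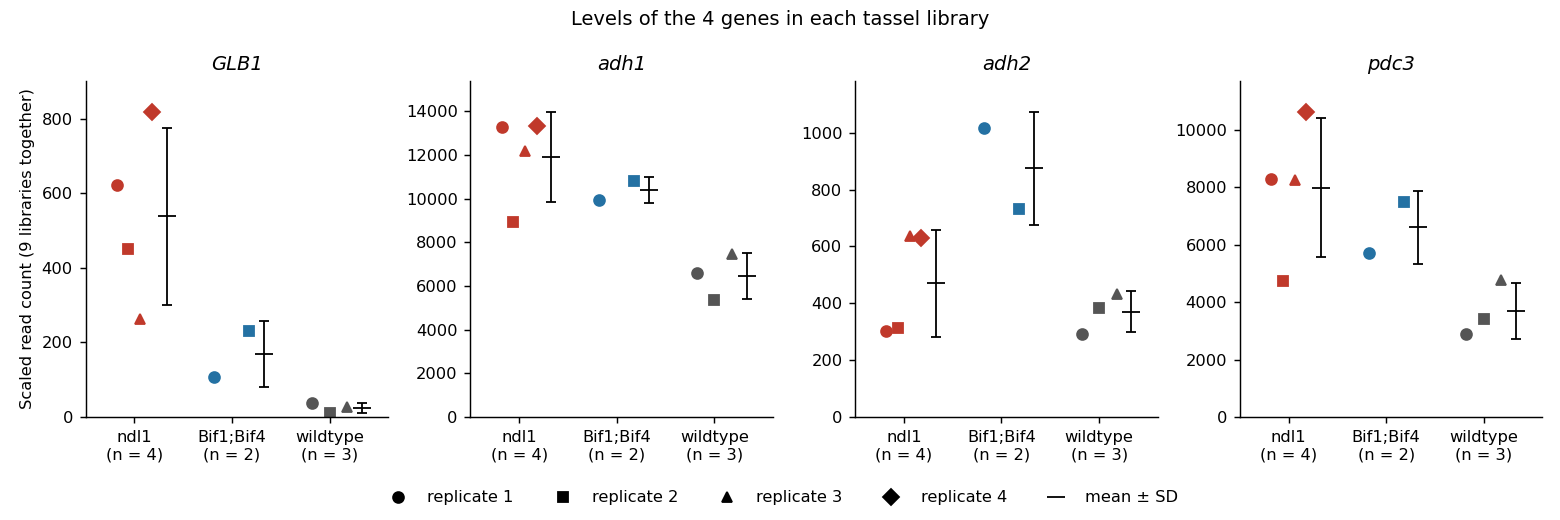
Scaled read counts of GLB1, adh1, adh2 and pdc3 in the 9 libraries, with all libraries scaled together. Points are libraries, with 1 marker shape for each replicate number, and the black bars are mean ± SD. GLB1 steps down from ndl1 to Bif1;Bif4 to wildtype, while adh2 is highest in Bif1;Bif4.

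Because the tables were normalized separately, the 9 libraries were also scaled together with common size factors to set the mutants side by side. On this scale GLB1 averaged 538 ± 237 in ndl1, 169 ± 87.2 in the double heterozygotes and 25.2 ± 13.4 in wildtype (SD, n = 4, 2 and 3). The lowest ndl1 library, with 264, was only a little above the higher Bif1;Bif4 library, with 231. The difference between the mutants, ndl1 minus Bif1;Bif4, was 1.65 ± 0.55 (SE) on the log2 scale.

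For adh1 the order of the means was the same, but ndl1 and Bif1;Bif4 did not differ beyond their spread. The means were 11912 ± 2071 in ndl1, 10385 ± 606 in the double heterozygotes and 6473 ± 1053 in wildtype, and the ndl1 minus Bif1;Bif4 difference was 0.18 ± 0.18. The mutants also overlapped for pdc3, with 7986 ± 2425 in ndl1, 6604 ± 1262 in the double heterozygotes and 3693 ± 963 in wildtype, a difference of 0.23 ± 0.30. For adh2 the order was Bif1;Bif4, then ndl1 and wildtype, which overlapped. Its means were 470.1 ± 188 in ndl1, 874 ± 199.7 in Bif1;Bif4 and 369.7 ± 72.2 in wildtype, and the ndl1 minus Bif1;Bif4 difference was -0.97 ± 0.34.

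Ratios of reads within a library do not depend on the scaling between libraries. Gene length affects each ratio by the same factor in every library, so the ratios were compared across libraries and not read as relative amounts of the transcripts. For every 1000 adh1 reads, ndl1 replicates 1 to 4 had 46.8, 50.4, 21.7 and 61.5 GLB1 reads, Bif1;Bif4 replicates 1 and 2 had 10.8 and 21.3, and wildtype replicates 1 to 3 had 5.59, 1.99 and 3.75. The genotypes again did not overlap, although ndl1 replicate 3 and Bif1;Bif4 replicate 2 nearly met.

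The share of adh2 beside adh1 separated the mutants from each other. There were 22.7, 35.1, 52.5 and 47.2 adh2 reads per 1000 adh1 reads in ndl1 replicates 1 to 4, and 102 and 67.8 in Bif1;Bif4 replicates 1 and 2, against 44.1, 71.5 and 58.3 in wildtype replicates 1 to 3. The Bif1;Bif4 values were above all ndl1 values, and wildtype overlapped both mutants. For pdc3 the ratio to adh1 overlapped across all genotypes, with 533 to 799.5 reads per 1000 adh1 reads in ndl1, 574 and 693 in the double heterozygotes, and 439 to 639.99 in wildtype. The hemoglobin gene relative to pdc3 kept the genotype order without overlap, although ndl1 and Bif1;Bif4 nearly met. Per 1000 pdc3 reads, ndl1 had 32.0 to 94.5 GLB1 reads. The double heterozygotes had 18.8 and 30.8, and wildtype had 3.13 to 12.7.

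**Figure D2:**
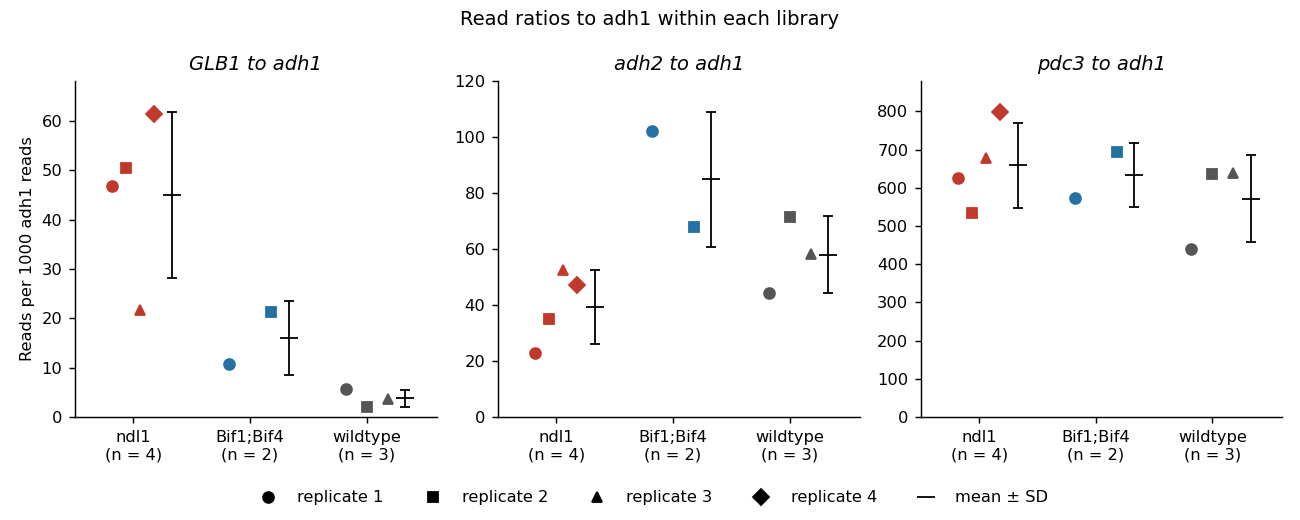
Reads of GLB1, adh2 and pdc3 per 1000 adh1 reads of the same library. Points are libraries and bars are mean ± SD. The pdc3 ratios overlap in all genotypes, while GLB1 separates the genotypes and adh2 separates Bif1;Bif4 from ndl1.

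Over the 9 libraries, adh1 and pdc3 varied most closely together, with a Pearson r of 0.94 (Spearman rho 0.97) on the log2 scale. GLB1 correlated with adh1 at r = 0.92 (rho 0.88) and with pdc3 at r = 0.82 (rho 0.77). The correlations with adh2 were weak, at 0.16 (rho 0.02) for GLB1, 0.40 (rho 0.33) for adh1 and 0.49 (rho 0.42) for pdc3. These coefficients are descriptions of 9 libraries from 3 genotypes, which share differences in group means, and they carry no test.

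The fold changes in the authors' deposited tables had the same signs. For GLB1 the authors' deposited table gave a log2 fold change of 2.63 ± 0.26 (SE) in ndl1 and 1.19 ± 0.24 in the double heterozygotes, well below the differences of group means. DESeq2 run on the recovered reads gave 4.42 ± 0.43 for GLB1 in ndl1, near the difference of group means. The reason for the lower deposited values was not tested. For adh1 and pdc3 the authors' deposited tables gave closer values, of 0.81 in ndl1 and 0.62 in the double heterozygotes for adh1, and of 0.92 in ndl1 and 0.70 in Bif1;Bif4 for pdc3. For adh2 the authors' deposited tables gave 0.27 in ndl1 and 1.02 in the double heterozygotes.

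The gene Hb2 (GRMZM2G168898) shares an older name of GLB1, its product is not described in the reference used here, and it was added after the values were seen. It had 382, 130.9, 182 and 248 normalized counts in ndl1, against 47.3, 63.6 and 110.2 in wildtype, without overlap. Its log2 fold change of 1.64 ± 0.39 in ndl1 did not pass limma (adjusted p = 0.0620) or edgeR (adjusted p = 0.0727), and passed DESeq2 (adjusted p = 0.000893). In the double heterozygotes it had 218.8 and 92.0 normalized counts, overlapping wildtype, and a log2 fold change of 1.04 ± 0.46 (limma adjusted p = 0.232).

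Other genes on the route from sucrose to ethanol and its side branches were taken from 7 lists matched by gene symbol. Many symbols had no match: 41 glycolysis symbols gave 13 genes, 35 of sucrose entry gave 11, and 18 of alanine and GABA gave 1. The lists thus cover the route in part, with 42 genes in all. Like the 4 genes, the lists were chosen with earlier results of these data known. The counts and p-values of list genes, here and below, therefore describe these libraries and are no independent test. In ndl1, 3 of the 37 that could be tested rose and 0 fell by limma, and all of these were in glycolysis. By unadjusted p under 0.05, 15 were higher and 2 lower, against 11.9% and 10.1% of the 22416 genes tested, and DESeq2 called 12 of the 37, against 9.87% of 22400. The median log2 fold change of the 37 was 0.21, with 27 above zero, against a median of -0.00 over all 22416 genes. Without ndl1 replicate 2, 7 passed, and calls over all genes also rose, to 1467 of 22298. In the double heterozygotes, 1 of 36 rose and 1 fell, with a median of 0.16 and 24 above zero, against a median of 0.00 over all 22381 genes. By unadjusted p under 0.05, 12 were higher and 4 lower there, against 11.8% and 11.5% of the 22381 genes tested, so that the lower count was at the share of all genes. DESeq2 called 9, against 9.41% of all genes. These shares are also the background for the counts at the same thresholds in the lists below. In the double heterozygotes, limma passed 0 of these genes without wildtype replicate 2, where 12 had an unadjusted p under 0.05. That fit called only 1 of all 22133 genes. Without wildtype replicate 1, 1 list gene and 492 of 22205 genes passed. Without wildtype replicate 3, 5 list genes and 1299 of 22224 genes passed. Fits without a Bif1;Bif4 library left 1 library in that group, so their counts are not given here.

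Glycolysis supplies the pyruvate for fermentation, and in maize roots ald1, gpc3, gpc4 and eno1 are known among the genes induced by low oxygen. Of 13 glycolysis genes tested, eno1, ald1 and gpc4 rose in ndl1 by limma and 10 did not pass. At an unadjusted p under 0.05, 7 were higher and 1 lower (all genes 11.9% and 10.1%), and DESeq2 called 6 (all genes 9.87%). The enolase gene eno1 had 24902, 26313, 21864.5 and 23499.9 normalized counts in ndl1, against 10852, 10872 and 11593 in wildtype, a log2 fold change of 1.12 ± 0.09 (limma adjusted p = 0.000929). The aldolase gene ald1 averaged 14676 ± 1686 in ndl1 and 6604 ± 961 in wildtype, a log2 fold change of 1.15 ± 0.13 (limma adjusted p = 0.00445). For gpc4, a cytosolic glyceraldehyde-3-phosphate dehydrogenase gene, the means were 13088 ± 2285 in ndl1 and 5706 ± 594 in wildtype, a log2 fold change of 1.19 ± 0.14 (limma adjusted p = 0.00574). Each of these genes was separated from wildtype in all 4 ndl1 libraries, ndl1 replicate 2 included, where adh1, pdc3 and ald1 were lowest and gpc4 and eno1 were highest.

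Related copies are given by their values, since differences between copies were not tested. The enolase gene eno2, the list member with the highest mean count, averaged 20016 ± 2409 in ndl1 and 20123.5 ± 1096 in wildtype, with a log2 fold change of -0.01 ± 0.11. The log2 fold changes of GPC1 and gpc2 in ndl1 were 0.08 ± 0.10 and 0.21 ± 0.11, and that of gpc3 was 0.49 ± 0.16, past the threshold in DESeq2 (adjusted p = 0.0215) but not in limma (adjusted p = 0.133). Reads of near-identical copies could have been split between them in the authors' counting, so values within the enolase and glyceraldehyde-3-phosphate dehydrogenase pairs are uncertain, as they are for adh1 and adh2.

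In Bif1;Bif4 none of the 13 glycolysis genes passed by limma or edgeR, while 3 were higher and 1 lower at an unadjusted p under 0.05 (all genes 11.8% and 11.5%) and DESeq2 called 2 (all genes 9.41%). The log2 fold changes were -0.09 ± 0.08 for eno1, -0.08 ± 0.13 for gpc4, -0.52 ± 0.13 for gpc3 and 0.50 ± 0.12 for ald1. A direct comparison of the mutants with the 9 libraries scaled together, added after the values were seen, called 1.79% of 23203 genes higher and 1.68% lower in ndl1 than in the double heterozygotes. Of the 37 list genes in that fit, 4 differed between the mutants. By that limma test eno1 was higher in ndl1 by 1.21 ± 0.10 on the log2 scale (adjusted p = 0.000404), gpc4 by 1.26 ± 0.16 (adjusted p = 0.00361), gpc3 by 1.01 ± 0.18 (adjusted p = 0.0178) and ald1 by 0.65 ± 0.14 (adjusted p = 0.0343). Across the 9 fits that left out 1 library each, the adjusted p of eno1 stayed between 0.000584 and 0.00860. That of gpc4 reached 0.0614 without Bif1;Bif4 replicate 1, gpc3 did not pass when either of the Bif1;Bif4 libraries was left out, and ald1 passed only without ndl1 replicate 2 or without wildtype replicate 3.

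**Figure D3:**
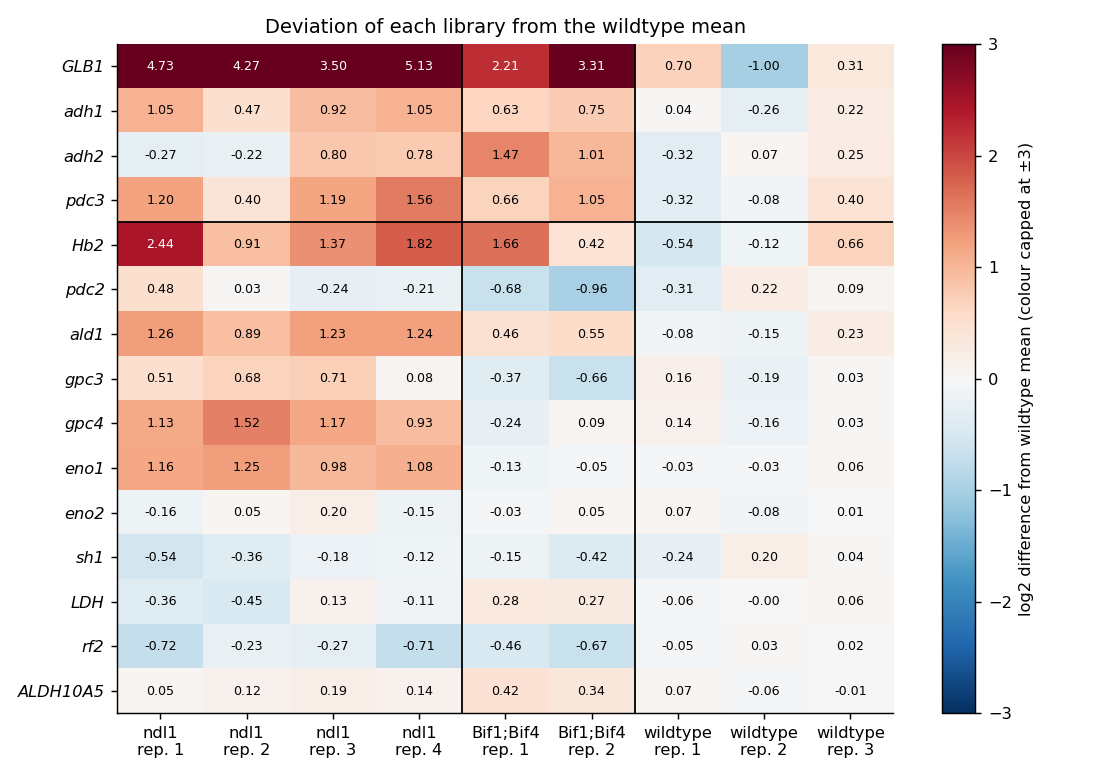
Difference of log2(scaled count + 1) in each library from the mean of the 3 wildtype libraries, with the 4 described genes above the line and related genes below it. Columns are libraries, with ndl1 at the left, Bif1;Bif4 in the middle and wildtype at the right, and the numbers are log2 differences. The rows of eno1 and gpc4 are near zero in Bif1;Bif4, whereas those of GLB1, adh1 and pdc3 are positive in every mutant library.

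Of the other pyruvate decarboxylase symbols searched, only pdc2 had a matched identifier. Its log2 fold change was 0.01 ± 0.21 in ndl1 and -0.82 ± 0.20 in the double heterozygotes (limma adjusted p = 0.0744, DESeq2 adjusted p = 0.0250), opposite in sign to pdc3 in the double heterozygotes. Its normalized counts were 112.5 and 92.0 in the double heterozygotes, against 146.3, 210.5 and 192 in wildtype.

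Aldehyde dehydrogenases can oxidise acetaldehyde to acetate, and lactate dehydrogenase offers a fermentation route without acetaldehyde. None of the 8 tested genes of this list passed in ndl1 by limma or edgeR, with 1 higher and 1 lower at an unadjusted p under 0.05, near the 11.9% and 10.1% of all genes, and 2 called by DESeq2. In Bif1;Bif4, ALDH10A5 rose by 0.38 ± 0.08 on the log2 scale (1964 ± 81.7 in the double heterozygotes and 1514 ± 70.05 in wildtype, limma adjusted p = 0.0448). It did not pass in any of the 5 fits that left out 1 library, or with no filter on low counts (limma adjusted p = 0.0553). The mitochondrial aldehyde dehydrogenase gene rf2, known as a restorer of male fertility, fell by 0.57 ± 0.08 in the double heterozygotes (1888 ± 191 in the double heterozygotes and 2795 ± 73.0 in wildtype, limma adjusted p = 0.0216), and did not pass without Bif1;Bif4 replicate 1, without Bif1;Bif4 replicate 2 or without wildtype replicate 2, or in the fit of all 9 libraries (limma adjusted p = 0.0973). Its log2 fold change in ndl1 was -0.48 ± 0.14 (limma adjusted p = 0.0962, DESeq2 adjusted p = 0.0242). The member with the highest mean count, ALDH7, had log2 fold changes of -0.02 ± 0.09 in ndl1 and 0.08 ± 0.09 in the double heterozygotes. For LDH they were -0.20 ± 0.13 in ndl1 and 0.27 ± 0.07 in Bif1;Bif4, neither past the threshold.

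Sucrose synthases and invertases open the route by splitting sucrose, and hexokinases and fructokinases phosphorylate the products. None of the 8 tested genes passed in either mutant by limma or edgeR. At an unadjusted p under 0.05, 4 were higher in ndl1 (all genes 11.9%) and 2 in the double heterozygotes (all genes 11.8%), and DESeq2 called 3 in ndl1 and 2 in the double heterozygotes. The sucrose synthase gene sus1, the list member with the highest mean count, averaged 30793 ± 3852 in ndl1 and 25933 ± 3141 in wildtype, a log2 fold change of 0.25 ± 0.13, and had 0.19 ± 0.14 in the double heterozygotes. The flooding-responsive sucrose synthase gene sh1 had log2 fold changes of -0.30 ± 0.14 in ndl1 and -0.29 ± 0.15 in the double heterozygotes, opposite in sign to adh1.

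The small remaining lists gave no gene past the limma or edgeR threshold. Among genes for oxygen sensing and low-oxygen response, 4 were tested in ndl1 and 3 in Bif1;Bif4, all with positive log2 fold changes. At an unadjusted p under 0.05, 3 were higher in ndl1 (all genes 11.9%) and 2 in the double heterozygotes (all genes 11.8%), and DESeq2 called 1 in each. The gene with the highest mean count, EREB160, which encodes an ethylene response factor, had a log2 fold change of 0.47 ± 0.17 in ndl1 (limma adjusted p = 0.151, DESeq2 adjusted p = 0.0574). In the double heterozygotes EREB160 had 0.64 ± 0.15 (limma adjusted p = 0.0670, DESeq2 adjusted p = 0.00310). Of the 2 nitrate reduction genes, the double heterozygotes had 1 higher and 1 lower by unadjusted p under 0.05, with 1 called by DESeq2, and ndl1 had none by either. For NIR, a nitrite reductase gene, the log2 fold changes were -0.07 ± 0.36 in ndl1 and 0.63 ± 0.17 in the double heterozygotes (limma adjusted p = 0.0856, DESeq2 adjusted p = 0.0350). For the glutamate dehydrogenase gene gdh1 they were 0.14 ± 0.21 in ndl1 and 0.39 ± 0.15 in the double heterozygotes.

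**Figure D4:**
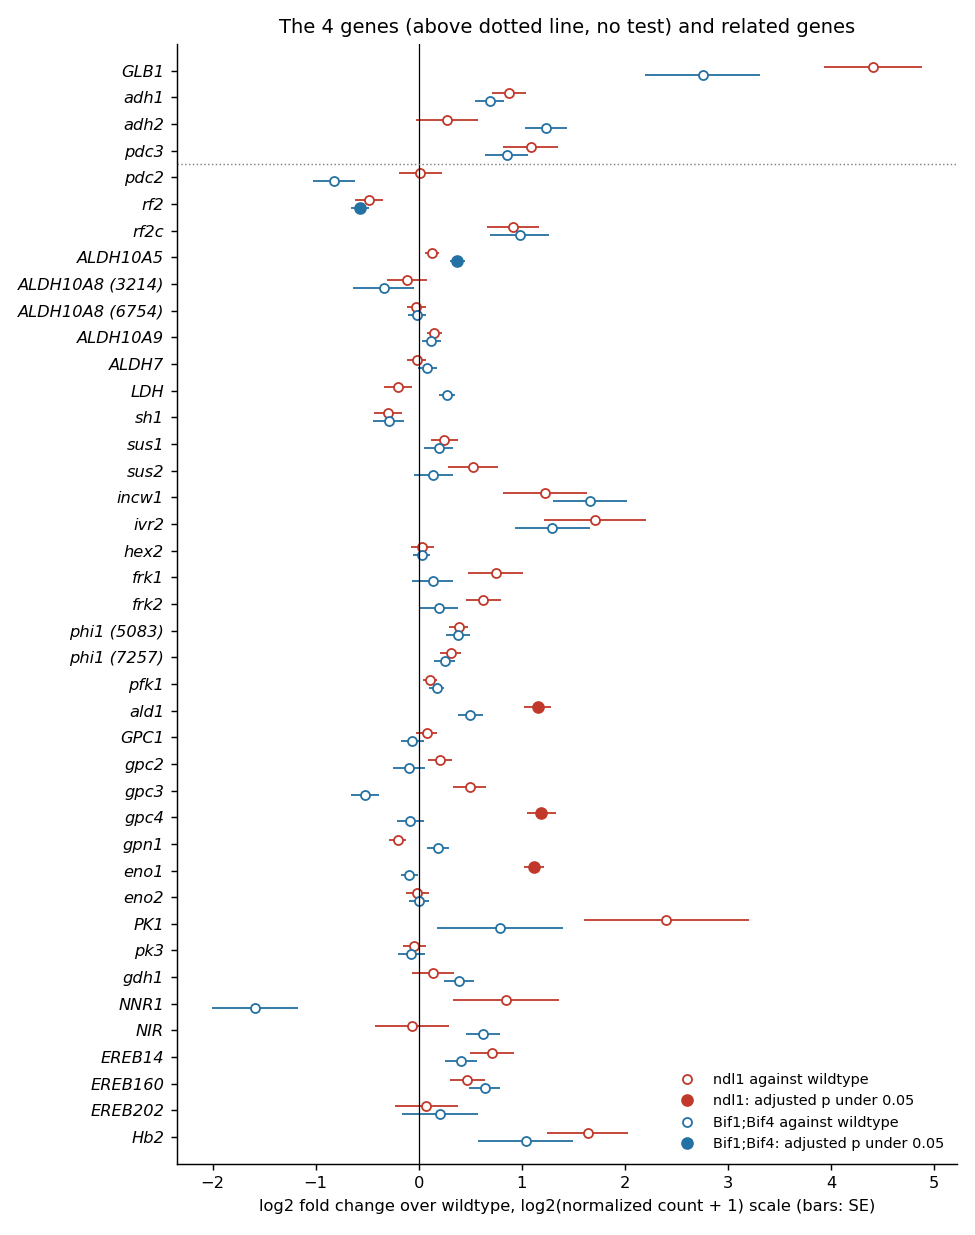
Log2 fold changes over wildtype with standard errors, for ndl1 (red) and Bif1;Bif4 (blue), of the 4 described genes above the dotted line and of the related genes tested in both comparisons below it. Filled points passed limma at an adjusted p under 0.05, which was not applied to the 4 genes above the line. The filled red points are ald1, gpc4 and eno1, and the filled blue points are rf2 and ALDH10A5.

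Marker genes of tissues that a tassel can hold moved with genotype, and their part in the results was not tested. On the common scale, the sum of 9 meristem and inflorescence markers was 6102 to 9290 in ndl1 and 7060.3 to 7299.8 in Bif1;Bif4, against 10346.5 to 11742 in wildtype, so that both mutants were below wildtype without overlap. Most of this sum was kn1, with a log2 fold change of -0.37 ± 0.14 in ndl1 (limma adjusted p = 0.175). In the double heterozygotes kn1 had -0.42 ± 0.09 (limma adjusted p = 0.0479, edgeR adjusted p = 0.0504). Log2 fold changes were negative for 9 of the 9 markers in ndl1 and 8 in the double heterozygotes. Over all genes they were negative for 11246 of 22416 and 11102 of 22381. The sum of 9 anther and meiosis markers was 3899.98 to 4436 in ndl1 and 3056 to 3165 in the double heterozygotes, against 2905 to 2986 in wildtype. That is the genotype order of GLB1, but it rests on afd1, which is also among the genes most like GLB1 below. With afd1 taken out of the sum, the mean stayed highest in ndl1, but that of the double heterozygotes was below wildtype. Scaled counts of afd1 averaged 1587 in ndl1, 970 in the double heterozygotes and 714 in wildtype. Of the 7 tested markers, 2 had negative log2 fold changes in ndl1 and 3 in the double heterozygotes. Of 9 meristem markers tested, 2 fell in ndl1 and 5 in the double heterozygotes by limma (all genes 1.22% and 2.05%). By edgeR 1 and 4 passed (all genes 684 of 22416 and 944 of 22381), and by DESeq2 4 and 6 (all genes 9.87% and 9.41%). Of 7 anther and meiosis markers tested, 2 rose and 1 fell in ndl1 by limma (all genes 1.94% and 1.22%). In the double heterozygotes 1 of these rose (all genes 2.23%). On the anther list edgeR passed 3 in ndl1 and 1 in the double heterozygotes, and DESeq2 4 and 1. Among the ndl1 calls by limma, only that of afd1 was kept in every fit that left out 1 library.

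Sums of vascular and secondary wall markers overlapped between genotypes, at 3486 to 9343 in ndl1, 4307 and 5343 in the double heterozygotes, and 3161 to 5793 in wildtype, with 7 of the 9 markers detected and both identifiers of cesa11 at 0 in all 9 libraries. Within ndl1, replicate 4 had the highest vascular sum and the highest pdc3 and GLB1 values, and replicate 2 the lowest vascular sum, pdc3 and adh1. The lowest GLB1 value was in replicate 3, however, and adh2 was highest in replicate 3 and lowest in replicate 1. The 11 photosynthesis markers summed to 1350 to 2237 in ndl1, 1555 and 1723 in Bif1;Bif4, and 1331 to 1553 in wildtype, with 1 identifier each of rbcS, psbs1 and psad1 at 0 in 7 of the 9 libraries. Of 7 vascular markers tested, ccr2 rose (1.36 ± 0.29) and cad1 fell (log2 fold change -1.09 ± 0.18) in ndl1, and 0 passed in the double heterozygotes by limma, edgeR or DESeq2, with 2 higher and 1 lower at an unadjusted p under 0.05. The call of ccr2 was lost in every fit that left out 1 library, and that of cad1 without ndl1 replicate 1, without wildtype replicate 2 or without wildtype replicate 3. The photosynthesis marker Ppdk1 rose in both mutants, by 3.23 ± 0.46 in ndl1 and 2.45 ± 0.48 in the double heterozygotes, and was the only one of 6 and 7 tested to pass limma. It did not pass in ndl1 without wildtype replicate 2, and in the double heterozygotes it passed only without wildtype replicate 3 among the fits that left out 1 library. The part of either list in these results was not tested.

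Among 1640 named genes with a mean of at least 50 scaled counts, those whose log2 levels followed GLB1 most closely over the 9 libraries were BURP10 (Pearson r 0.97), gln2 (r 0.95), gst20 (r 0.94), MYB139 (r 0.94) and afd1 (r 0.93). The glutathione transferase gene gst20 averaged 450.1 in ndl1, 149 in the double heterozygotes and 39.2 in wildtype, and BURP10 averaged 496 in ndl1, 233 in the double heterozygotes and 73.2 in wildtype. The gene afd1 encodes a meiotic cohesin subunit and belongs to the anther and meiosis markers above. For adh1 the closest were magi2594 (r 0.96), mfsd1, ARF9 and Sal1 (r 0.95 each) and pks1 (r 0.94).

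Sal1 was also the gene most like pdc3 (r 0.98), followed by Cel3 and lw1 (r 0.96 each), cesa8 (r 0.95) and TIFY9 (r 0.95). The cellulose synthase gene cesa8 averaged 4019 in ndl1, 2922 in the double heterozygotes and 2036 in wildtype. The genes most like adh2 were others again, namely PER1 (r 0.94), LIM6, OBF1 and MIK (r 0.93 each) and zfp30 (r 0.92). OBF1, a bZIP transcription factor gene, averaged 3250.4 in ndl1, 4966 in the double heterozygotes and 3127 in wildtype, highest in Bif1;Bif4 like adh2 itself. These coefficients are over 9 libraries that share genotype differences and were picked as the highest of many.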

How the data were processed

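RNA of 9 maize tassel samples was measured with stranded mRNA libraries, per the labels' protocols. The submitters' processing notes name Trimmomatic, TopHat2 2.1.1, HTSeq and DESeq2. For the genome build and for whether counting used strand, nothing is given in these sources, so reads of overlapping, antisense or near-identical genes are uncertain. None of the 4 described genes overlaps another gene in the RefSeq table.

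The authors deposited 1 table per mutant against wildtype. The signal values per library are counts that the authors divided by DESeq2 size factors, as the file headers and the values show. The log2 fold changes, p-value columns and test statistic (a score) are the authors' DESeq2 output, per the file headers. In every library 100% of values corresponded to a whole number of reads (tolerance 0.1), so reads were recovered, and wildtype reads did not differ between the tables (0 genes).

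The 4 genes and all lists were chosen with earlier results of these data known. Genes with few reads were removed with filterByExpr (minimum count 10). In R 4.3.3, limma 3.58.1 was fitted with its trend option to log2(normalized count + 1) over each whole table, and p-values were adjusted by Benjamini-Hochberg (threshold 0.05). The pseudocount understates changes of low genes. The edgeR (4.0.16) quasi-likelihood test and DESeq2 (1.42.0) on recovered reads, other scalings, filters and pseudocounts, and fits leaving out libraries were alternatives, and the fit was tested on simulated data. The mutants were compared directly in 1 limma fit of the 9 libraries on median-of-ratios size factors, added after the files were seen. Every member of a list that passed, its most abundant member and, for each of the 4 genes, the 5 named genes with the highest Pearson r were to be named. Few identifiers had a plain symbol, so 2473 with a descriptive name or synonym were admitted to that search. Hb2, gpc2, gpc3, GPC1, pdc2, LDH and sh1 were named after their values were seen. Gene names are those of RefSeq (Zm-B73-REFERENCE-NAM-5.0), in which 18476 identifiers matched 1 gene and 521 several. Protein alignments and promoter motifs planned for the 4 genes were not run, because no sequence was used here, and pdc1 was not analysed here.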

Additional observations from a re-analysis of the deposited data

Results flagged for a closer look

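The list genes that passed limma, against wildtype or between the mutants, were tested for an ndl1 library far from the others of its group. Among them ald1 stood out. GLB1, adh1, adh2 and pdc3 were not in that test. Its value of 12154.6 normalized counts in ndl1 replicate 2 was far from the 15694, 15404 and 15451 of the other ndl1 libraries, and still above the highest wildtype library, with 7699. Chance gives such a library in about 1 in 20 groups.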

How the results depend on the processing

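The log2 fold changes of GLB1, adh1, adh2 and pdc3 kept their sign and moved by less than the spread between replicates under all alternatives run, 14 in ndl1 and 12 in Bif1;Bif4. In ndl1 they ranged from 3.91 to 4.76 for GLB1, 0.74 to 1.01 for adh1, 0.10 to 0.46 for adh2 and 0.93 to 1.32 for pdc3. In Bif1;Bif4 the ranges were 2.20 to 3.30, 0.56 to 0.79, 1.001 to 1.47 and 0.65 to 1.05 in the same gene order. Counts of calls moved more, and the cause was not tested. DESeq2 called 12 list genes and 2210 genes in all in ndl1, and 9 and 2105 in Bif1;Bif4, against 3 and 708 in ndl1 and 2 and 957 in Bif1;Bif4 by limma. In Bif1;Bif4, 1 list gene passed with no filter on low counts and 1 with all 9 libraries in 1 fit. Leaving out 1 library gave 3 to 7 list genes and 111 to 1467 genes in all in ndl1, and 0 to 5 and 1 to 1299 in Bif1;Bif4, the 1 gene without wildtype replicate 2, where 3684 had an unadjusted p under 0.05. Where an arm was left with 1 library, that library was assumed to vary like the other group. Libraries with the same replicate number did not deviate together (correlations of -0.11, 0.22 and -0.01 between ndl1 and wildtype, and -0.22 and -0.17 between Bif1;Bif4 and wildtype), so the numbers were not used as pairs. A fit with the replicate block called 365 genes in ndl1 and 431 in Bif1;Bif4, with 3 and 2 list genes. The 2 in Bif1;Bif4 were rf2c and EREB160, while rf2 (limma adjusted p = 0.0685) and ALDH10A5 (limma adjusted p = 0.105) did not pass there with the block. Depth limits GLB1 in wildtype most, where a library held as few as 11 reads.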
